A study of Mus musculus with 24 samples.

Results

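The collagen genes are the rows of the count table whose mouse symbol has the form Col, a number, a and a number, and which are annotated as protein coding. There were 44 of them among the 21965 genes of the table, chosen by name and not by their values, and all 44 passed the filter on low counts. They were followed in mouse thoracic spinal cord before and after a contusion at level T9. OL-Ribotag mice carry a tamoxifen-inducible Cre and an Rpl22 allele whose HA-tagged form is switched on by Cre, so that after tamoxifen the ribosomes of Cre-expressing cells can be pulled down with an antibody to the tag. All mice, naive ones included, had this genotype and received tamoxifen. Uninjured (naive) tissue was compared with tissue taken 2, 10 or 42 days post-injury (dpi), after a moderate injury of 50 kdyn, and the labels give an age of 10 to 12 weeks for the injured mice. That range is the same at dpi 2, 10 and 42, and the labels give no age for naive mice. The paper gives a lower age range at injury than the labels' range. It states that naive and dpi 42 tissue was collected on the same day, at 1 time after the start of tamoxifen and at an age above the labels' range. Changes at dpi 2 and 10 against naive tissue thus also carry a difference in age and in time since tamoxifen. Each of the 4 conditions had 3 tissue pools, each pool gave 1 total RNA library (the input) and 1 library of immunoprecipitated RNA (the oligodendrocyte, or OL, translatome), and this made 8 groups of n = 3 and 24 libraries. As limits of the model, a pool joined a pair of female mice, and the promoter that drives Cre is also active in Schwann cells.

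Collagens are proteins of the extracellular matrix in which 3 chains wind into a helix. Fibrillar collagens (types I, II, III, V, XI) build the tensile fibers of connective tissue, and type I is the main fiber of most scars. Network collagens (type IV, type VIII) form sheets such as basement membranes, beaded filament collagens (type VI) link cells to fibers, fibril-associated collagens (types IX, XII, XIV, XVI) decorate fibers, multiplexins (XV, XVIII) sit in basement membranes, and transmembrane collagens (XIII, XXIII, XXV) stay on the cell surface. The uninjured cord holds little collagen outside vessels and meninges. After a contusion, fibroblasts and perivascular cells enter the lesion and lay down a collagen-rich scar, while oligodendrocytes, the myelin-forming cells, are not known as major collagen producers.

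Library totals ran from 25840127 to 32987841 counts. A count of 0 allows a level of up to 3 counts, which were 0.084 to 0.127 CPM (counts scaled to a common library size). Such limits cover counting error only. The pull-down followed its label: 8 mature OL markers summed to 14910 to 18760 CPM in total RNA and 71320 to 96480 CPM in OL libraries. Some libraries stood apart. Naive OL library 3 had 819.4 CPM of 8 Schwann cell markers and 7991 CPM of 6 astrocyte markers, against at most 146.0 and 1403 CPM in the other 2 naive OL libraries. The astrocyte markers also set OL libraries apart after injury, at 7578 CPM in library 3 of dpi 2 (938.1 and 2521 in the others), 6067 CPM in library 2 of dpi 10 (1993 and 2464) and 11900.0 and 9975 CPM in libraries 1 and 2 of dpi 42 (1884). Tissue pool 2 of dpi 2 held 2604 (total RNA) and 2414 (OL) counts of Y-linked genes, against at most 13 in any other library, although all mice were described as female. The titles of total RNA library 1 and OL library 1 of dpi 42 conflict with their descriptions, the kind of RNA included, and the descriptions, which match the table's column names, were followed. The mature OL markers summed to 16920 CPM in this total RNA library and 74070 CPM in this OL library. Each value lies within the range above of the kind of RNA described.

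Levels are CPM scaled by trimmed mean of M values (TMM), and differences are log2 fold changes ± SE with a q-value, which is the p of edgeR's quasi-likelihood test adjusted by Benjamini-Hochberg over all 17167 genes tested. A gene was called changed past a log2 fold change of 1, or OL enriched or depleted past 0.5, with q under 0.05. Differential OL enrichment is the OL to total RNA ratio after injury against that in naive tissue. In a bulk sample, fewer cells of a type and less RNA per cell cannot be told apart.

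Collagen genes rose after injury both in total RNA and in the OL translatome, most of all at dpi 10. In total RNA, 20 of 44 rose at dpi 2, where 10.0% of all genes did, 28 at dpi 10 (9.20% of all genes) and 19 at dpi 42 (6.66%). In the OL translatome, 16 rose at dpi 2 (10.2% of all genes), 25 at dpi 10 (6.82%) and 15 at dpi 42 (8.54%). The only member that fell against naive tissue was Col11a2, at dpi 2, in total RNA (6.33% of all genes fell) and in OL libraries (6.85%). The median log2 change over the members was 1.58, 2.42 and 1.75 in total RNA and 1.43, 2.21 and 1.36 in OL libraries at dpi 2, 10 and 42. With genes that were at 0 in every library of a group set to the limit of 3 counts, or left out where both groups were at or under it, these medians were 1.58, 2.41 and 1.71, and 1.6, 2.22 and 1.48. Over all tested genes they were -0.1, -0.1 and -0.08 in total RNA and 0 at each time in OL libraries. Without naive OL library 3, 21, 25 and 22 members rose in OL libraries. Without pool 2 of dpi 2, 18 rose in total RNA and 16 in OL libraries at dpi 2, and without the 2 libraries with conflicting labels, 18 and 14 rose at dpi 42.

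The share of all counts that fell on collagen genes grew accordingly. In total RNA it was 0.02785% to 0.0318% in naive tissue, 0.1009% to 0.1561% at dpi 2, 0.3754% to 0.4148% at dpi 10 and 0.09424% to 0.1521% at dpi 42. In OL libraries it was 0.0304% to 0.03577%, 0.07597% to 0.08868%, 0.1125% to 0.1218% and 0.06356% to 0.07597%. The injured groups of each kind of library lay above the naive ones without overlap. The makeup shifted too: Col1a1, Col1a2 and Col3a1 together made up 17.65% to 19.42% of collagen counts in naive total RNA and 61.95% to 62.76% at dpi 10, against 11.67% to 18.91% and 38.51% to 40.03% in OL libraries.

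**Figure D1:**
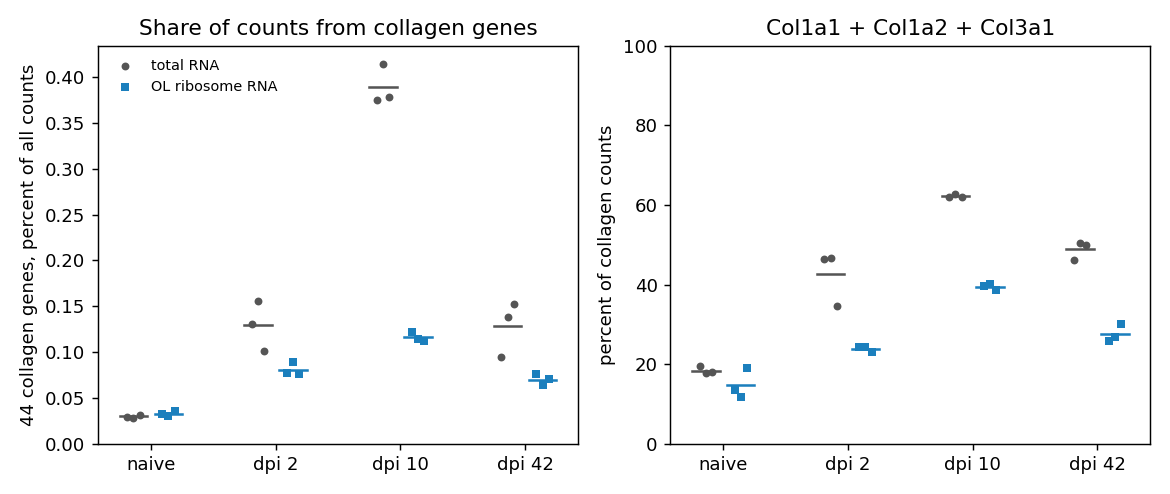
Share of all counts on the 44 collagen genes (left, percent) and share of collagen counts on Col1a1, Col1a2 and Col3a1 (right, percent) for each of the 24 libraries, with points for libraries and bars for group means. Total RNA at dpi 10 stands highest in both panels, at 0.3754% to 0.4148% of counts and 61.95% to 62.76% of collagen counts.

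Most members that rose in OL libraries also rose in total RNA. At dpi 10 all 25 of them did, and these were 89.3% of the 28 that rose in total RNA, where Col2a1, Col4a6 and Col6a3 passed in total RNA alone. At dpi 2 the overlap was 15 genes, 75.0% of the total RNA calls and 93.8% of the OL calls, and at dpi 42 it was 15 genes, 78.9% and 100.0%. Over all genes tested, 5.95%, 5.07% and 4.36% rose in both kinds of library at dpi 2, 10 and 42. A call in one kind of library and not in the other does not show that the 2 differ, and that difference is given by differential OL enrichment further on.

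**Figure D2:**
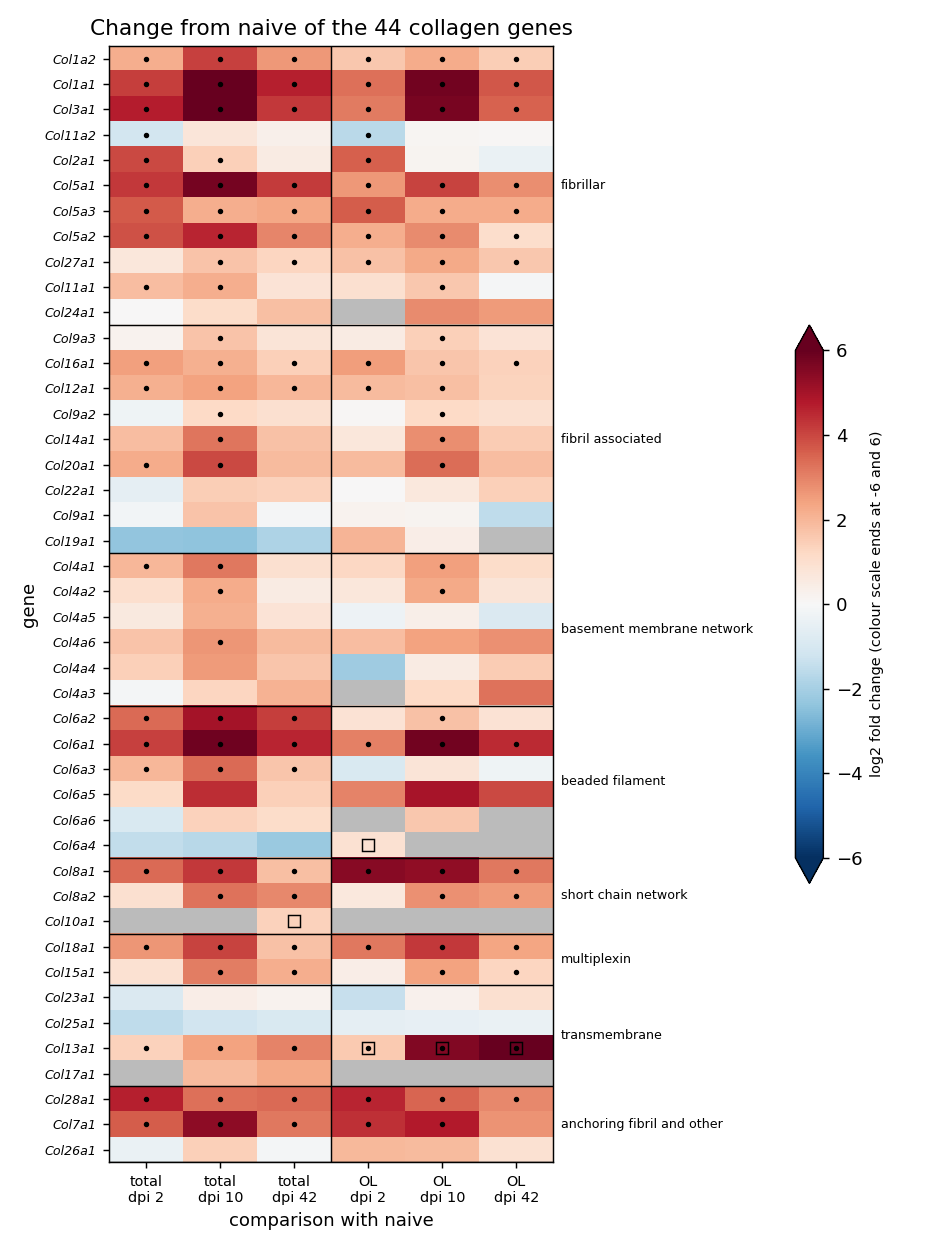
Log2 change against naive tissue of each of the 44 collagen genes (rows, by class) in total RNA and OL libraries at dpi 2, 10 and 42 (columns), where a dot marks a call, an open square a limit used in place of a fitted value and grey no fold. At dpi 10, 28 genes carry a called rise in total RNA and 25 in OL libraries, while rows such as Col6a4, Col6a5 and Col6a6 carry none at any time.

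Promoters are shown for 4 members that carry the main patterns: Col1a2 and Col3a1, which rose together with Col1a1 in the scar, Col16a1, the member that was OL enriched and rose at every time, and Col13a1, which was undetected in naive OL libraries and rose there. The sequences are the 250 bases before the transcription start in RefSeq on GRCm38.p6, 5′ to 3′ on the gene's strand, and for Col1a2, 127 bases annotated as untranslated were left out. The bases left out hold the CCAAT match of Col1a2, at -109 to -105, which is therefore not printed. The printed Col1a2 window lies within the gene range given further on, which starts upstream of it. RefSeq promoters were matched for 35 of the 44 members. Capitals mark exact matches to 5 motifs, searched on both strands and not overlapping in these windows. They are the letters TATAAA of the TATA box, the letters CCAAT of the motif named for them, the letters GGGCGG of the GC box, the letters TGANTCA bound by AP-1, and the letters ACAAAG, a core bound by SOX factors.
Col1a2 chr6:4505370-4505492 (plus strand): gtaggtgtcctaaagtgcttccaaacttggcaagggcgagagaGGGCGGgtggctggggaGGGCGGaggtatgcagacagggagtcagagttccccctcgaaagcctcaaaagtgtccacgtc
Col3a1 chr1:45311288-45311537 (plus strand): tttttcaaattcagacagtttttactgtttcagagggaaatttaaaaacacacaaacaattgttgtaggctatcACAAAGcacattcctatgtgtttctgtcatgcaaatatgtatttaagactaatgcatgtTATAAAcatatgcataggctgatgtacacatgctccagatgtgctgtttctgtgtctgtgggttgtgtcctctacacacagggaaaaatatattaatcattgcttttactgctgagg
Col13a1 chr10:61979109-61979358 (minus strand): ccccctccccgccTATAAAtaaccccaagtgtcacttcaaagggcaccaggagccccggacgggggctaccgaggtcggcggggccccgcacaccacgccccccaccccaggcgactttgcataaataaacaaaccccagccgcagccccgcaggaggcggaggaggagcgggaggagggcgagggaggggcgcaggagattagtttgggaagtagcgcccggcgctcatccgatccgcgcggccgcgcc
Col16a1 chr4:130047590-130047839 (plus strand): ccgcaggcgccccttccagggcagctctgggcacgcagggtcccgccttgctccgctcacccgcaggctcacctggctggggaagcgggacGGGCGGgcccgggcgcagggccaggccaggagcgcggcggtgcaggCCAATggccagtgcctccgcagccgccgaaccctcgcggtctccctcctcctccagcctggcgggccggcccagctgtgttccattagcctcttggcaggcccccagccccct
GGGCGG was found in 60.0% of the 35 members' windows and 35.4% of the windows of 27025 genes. TATAAA was found in 14.3% of both, CCAAT in 37.1% of members and 37.5% of genes, ACAAAG in 11.4% and 18.6%, and TGANTCA in 2.86% and 7.82%. A match is a description of these letters, and binding was not measured.

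The largest fitted changes among the members in total RNA at dpi 10 were those of the fibrillar genes Col3a1 and Col1a1, followed by Col6a1 and Col5a1. Col1a1 (ENSMUSG00000001506; chromosome 11, 94936224 to 94953042, plus strand, GRCm38), the alpha 1 chain of type I collagen, had 6.56, 8.03 and 11 CPM in the 3 naive libraries, 170.1, 198 and 93.5 at dpi 2, 793, 899.5 and 823 at dpi 10 and 145, 252 and 254 at dpi 42 in total RNA. Its OL libraries had 1.98, 1.35 and 5.66 CPM in the 3 naive libraries, 24.6, 32.6 and 31.4 at dpi 2, 168, 163 and 174 at dpi 10 and 32.5, 37.7 and 49.96 at dpi 42. The naive libraries lay below every injured library in both. The log2 changes in total RNA at dpi 2, 10 and 42 were 4.17 ± 0.37 (q = 3.4e-08), 6.62 ± 0.42 (q = 2.1e-10) and 4.67 ± 0.38 (q = 2.2e-08). In OL libraries they were 3.29 ± 0.38 (q = 7e-07), 5.80 ± 0.41 (q = 4.2e-09) and 3.73 ± 0.38 (q = 5.2e-07). Col1a1 was OL depleted in all 4 groups, at -1.50, -2.38, -2.32 and -2.44 in naive tissue and at dpi 2, 10 and 42 (-0.99 in naive tissue without OL library 2), and its differential OL enrichment was not called (-0.89 ± 0.49 (q = 0.27), -0.82 ± 0.49 (q = 0.39) and -0.94 ± 0.49 (q = 0.28)). The OL changes and the differential values depend on naive OL library 3, the highest of its group. Without it, the naive OL enrichment was -2.20 and the OL changes were 4.08, 6.65 and 4.53 at dpi 2, 10 and 42.

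Col1a2 (ENSMUSG00000029661; chromosome 6, 4504814 to 4541544, plus strand) encodes the other chain of type I collagen and behaved differently in the pull-down. Total RNA held 42, 33.2 and 34.9 CPM in the 3 naive libraries, 179.7, 218 and 101 at dpi 2, 616, 674 and 587 at dpi 10 and 160.0, 252 and 253 at dpi 42. OL libraries held 55.8, 46.1 and 71.5 CPM in the 3 naive libraries, 179, 196 and 149.7 at dpi 2, 299.5, 278 and 230.0 at dpi 10 and 175, 146 and 162 at dpi 42. In naive tissue each OL library was above each total RNA library, and at dpi 10 each was below. Col1a2 rose by 2.18 ± 0.23 (q = 2.5e-07), 4.09 ± 0.25 (q = 1.3e-10) and 2.59 ± 0.23 (q = 8.2e-08) in total RNA. OL levels rose by 1.60 ± 0.22 (q = 7.9e-06), 2.22 ± 0.23 (q = 6.9e-07) and 1.48 ± 0.22 (q = 3.5e-05). Its OL enrichment went from 0.66 ± 0.22 (q = 0.016) in naive tissue through 0.07 ± 0.22 (q = 0.81) at dpi 2 to -1.22 ± 0.22 (q = 8e-05) at dpi 10 and -0.46 ± 0.22 (q = 0.083) at dpi 42. The naive enrichment was 0.15 with library sizes alone as scaling, and q was 0.0599 without naive total RNA library 2.

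Per kilobase of exon, the ratio of Col1a1 to Col1a2 thus shifted in both kinds of library. In total RNA it was 0.296 to 0.598 in naive tissue, 1.72 to 1.79 at dpi 2, 2.44 to 2.65 at dpi 10 and 1.72 to 1.9 at dpi 42. In OL libraries it was 0.0556 to 0.15, 0.259 to 0.398, 1.06 to 1.43 and 0.352 to 0.583. At each time the OL ratios lay below the total RNA ratios without overlap. The type I triple helix of fibers uses Col1a1 and Col1a2 chains at a fixed ratio, and RNA levels per length are not chain levels. The length is the union of all annotated exons, 6563 bases for Col1a1 and 12426 for Col1a2, and the size of each ratio depends on it. It is the same in every library, so the shift between groups does not depend on it. In CPM, dpi 10 total RNA averaged 838.4 for Col1a1 and 625.4 for Col1a2.

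Col3a1, the chain of type III collagen that accompanies type I in young scars, rose from 3.61 to 6.08 CPM in naive total RNA to 449 to 536 CPM at dpi 10 (6.76 ± 0.66 (q = 1.6e-07)), and from 0.381 to 5.55 CPM to 102 to 126 CPM in OL libraries (5.68 ± 0.65 (q = 3e-06)). The highest naive OL value was that of library 3, and without it the OL change was 8.10 (5.45 and 5.94 at dpi 2 and 42, in place of 3.10 and 3.56). Col5a1, which with Col5a2 forms the type V collagen that seeds type I fibers, rose by 4.22 ± 0.62 (q = 1.6e-05), 5.76 ± 0.66 (q = 1.1e-06) and 4.20 ± 0.62 (q = 4.9e-05) in total RNA. The OL translatome followed with rises of 2.6 ± 0.60 (q = 0.0016), 4.04 ± 0.62 (q = 9.3e-05) and 2.79 ± 0.60 (q = 0.0011). Its OL changes were 4.33, 5.85 and 4.55 without naive OL library 3. Col5a3, another type V chain, also rose at every time in both (3.66, 2.19 and 2.32 in total RNA and 3.64, 2.21 and 2.23 in OL libraries), with its highest level at dpi 2. Its OL changes were 5.10, 3.73 and 3.69 without naive OL library 3. Its fitted OL to total RNA ratio was within 0.00 to 0.12 on the log2 scale in all 4 groups. In naive tissue that value rests on OL library 3. Per kilobase, naive OL libraries held 0.0926, 0.211 and 0.9999 CPM and naive total RNA libraries 0.303, 0.317 and 0.605.

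**Figure D3:**
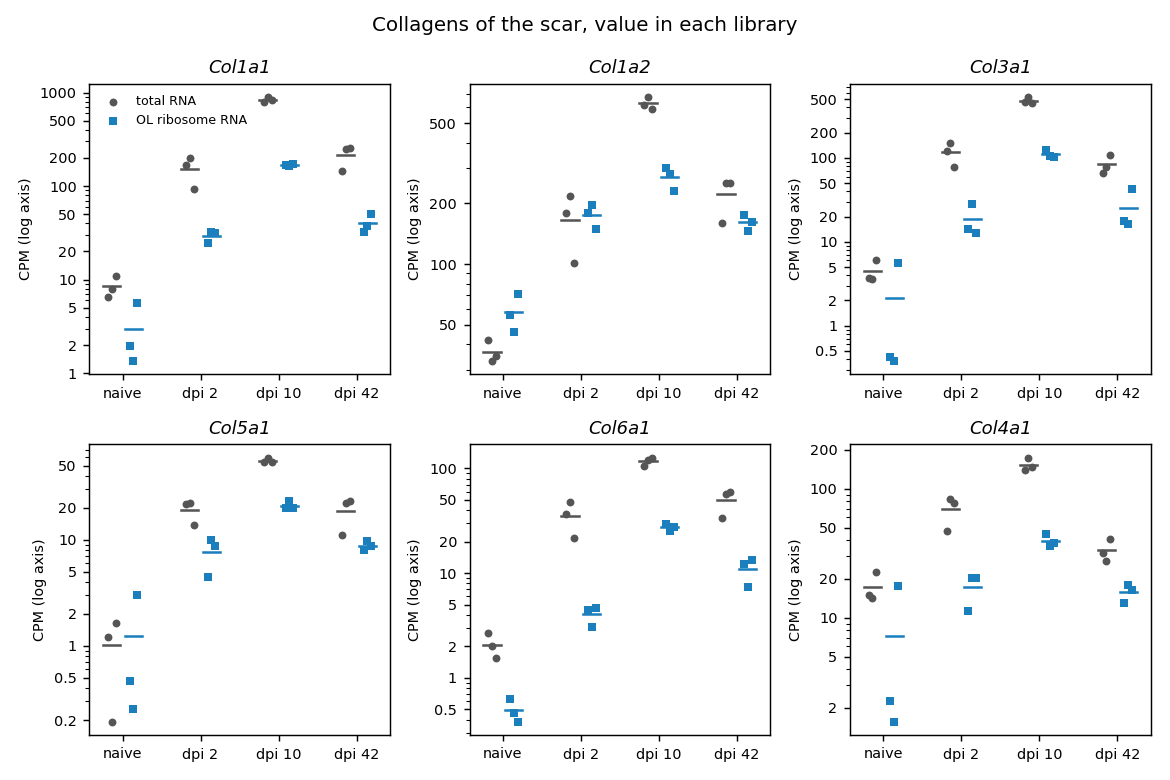
CPM on a log axis of Col1a1, Col1a2, Col3a1, Col5a1, Col6a1 and Col4a1 in each library by time, with total RNA and OL libraries side by side and lines at group means. Every gene is highest in total RNA at dpi 10, where Col1a1 reaches 793, 899.5 and 823 CPM.

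Markers of other cells also rose after injury. The 10 fibroblast markers summed to 37.66 to 47.19 CPM in naive total RNA and 354.2 to 383.4 CPM at dpi 10, and all 10 rose by then. In OL libraries they summed to 11.8, 9.94 and 61.5 CPM in the 3 naive libraries and to 86.75 to 105.4 CPM at dpi 10, and 3, 5 and 8 of 10 rose at dpi 2, 10 and 42. Among the defining fibroblast markers, Twist1 was at 0 in every naive OL library. The 6 meningeal markers went from 6.19 to 7.312 CPM to 101.7 to 144.8 CPM in total RNA and from 0.423 to 1.262 CPM to 8.893 to 20.06 CPM in OL libraries, where 5, 6 and 6 of 6 rose. In naive tissue Slc47a1 was at 0 in both kinds of library, Slc22a6 in total RNA and Foxc2 in OL libraries. The 8 myeloid markers went from 174.1 to 206.8 CPM to 3231 to 4468 CPM in total RNA and from 10.2 to 16.26 CPM to 205.7 to 241.1 CPM in OL libraries, where 7, 8 and 8 of 8 rose. Of 8 mural markers, 2, 3 and 3 rose in total RNA and 4, 4 and 4 in OL libraries, where 1, 0 and 0 fell. In Schwann cells the promoter that drives Cre is also active. Their 8 markers went from 75.73 to 265.8 CPM to 255.2 to 476.6 CPM at dpi 10 in total RNA. OL libraries held 135.2, 146 and 819.4 CPM of them in naive tissue and 1068 to 1786 CPM at dpi 10, and 2, 3 and 2 of 8 rose while 0, 0 and 1 fell. At dpi 42 the fibroblast and meningeal markers summed to 187.4 to 322.5 and 55.62 to 157 CPM in total RNA. No gene of these 2 lists was called down there from dpi 10 to dpi 42, where 0.0757% of all genes were. The part of these cells' RNA in the collagen values, carried over in the pull-down included, was not tested.

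Type VI collagen, the beaded filament built from Col6a1, Col6a2 and another chain such as Col6a3, had chains that differed between the 2 kinds of library. Col6a1 had 2.69, 2 and 1.55 CPM in the 3 naive libraries, 36.6, 47.5 and 21.9 at dpi 2, 105, 121 and 127 at dpi 10 and 33.6, 56.6 and 60.1 at dpi 42 in total RNA. OL libraries had 0.63, 0.465 and 0.383 CPM in the 3 naive libraries, 4.46, 3.04 and 4.63 at dpi 2, 29.4, 25 and 27.8 at dpi 10 and 12.2, 7.39 and 13.5 at dpi 42. It rose at every time in total RNA, by 4.08 ± 0.31 (q = 3.8e-09), 5.82 ± 0.33 (q = 5.2e-11) and 4.59 ± 0.32 (q = 1.5e-09). Among OL libraries it rose by 3.03 ± 0.36 (q = 1.2e-06), 5.79 ± 0.36 (q = 6.2e-10) and 4.48 ± 0.36 (q = 2.2e-08). There was no overlap with naive libraries, and Col6a1 was OL depleted in all 4 groups (-2.07, -3.12, -2.10 and -2.18). Col6a2, its neighbor 85.2 kb away on chromosome 10 on the same strand, had 3.67, 4.64 and 4.06 CPM in the 3 naive libraries, 52.4, 52.6 and 26.7 at dpi 2, 121, 141 and 137 at dpi 10 and 46.5, 88.5 and 83.9 at dpi 42 in total RNA. OL libraries had 33.7, 20.6 and 11.1 CPM in the 3 naive libraries, 70.1, 33.7 and 13.5 at dpi 2, 63.9, 66.8 and 91.1 at dpi 10 and 39, 43.1 and 35.8 at dpi 42. In naive tissue Col6a2 was OL enriched, at 2.40 ± 0.45 (q = 0.00011), where Col6a1 was OL depleted. Total RNA rose by 3.41 ± 0.46 (q = 6.3e-06), 5.01 ± 0.49 (q = 1.7e-07) and 4.14 ± 0.48 (q = 2.3e-06). In OL libraries the change was called at dpi 10 only (0.84 ± 0.42 (q = 0.12), 1.76 ± 0.43 (q = 0.0059) and 0.85 ± 0.42 (q = 0.13)). The differential OL enrichment was -2.57 ± 0.61 (q = 0.0064), -3.25 ± 0.61 (q = 0.002) and -3.29 ± 0.61 (q = 0.0021), and at dpi 10 and 42 every OL library lay below every total RNA library.

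Col6a3 had 2.59, 3.03 and 3.74 CPM in the 3 naive libraries, 11.7, 16.4 and 8.71 at dpi 2, 31.5, 35 and 32.4 at dpi 10 and 6.53, 10.3 and 12.9 at dpi 42 in total RNA. Its OL libraries held 7.56, 10.4 and 7.46 CPM in the 3 naive libraries, 3.52, 5.27 and 4.67 at dpi 2, 16.7, 9.66 and 16.6 at dpi 10 and 6.82, 5.9 and 8.22 at dpi 42. Total RNA rose by 1.97 ± 0.29 (q = 1.4e-05), 3.40 ± 0.30 (q = 3.8e-08) and 1.66 ± 0.29 (q = 0.00024). The OL changes of -0.92 ± 0.28 (q = 0.013), 0.75 ± 0.28 (q = 0.065) and -0.28 ± 0.28 (q = 0.49) were not called. The gene was OL enriched in naive tissue (1.44 ± 0.29 (q = 0.00019)) and OL depleted at dpi 2 and 10 (-1.45 ± 0.28 (q = 0.00019) and -1.21 ± 0.28 (q = 0.00089)). The differential OL enrichment was -2.89 ± 0.40 (q = 6.1e-05), -2.64 ± 0.40 (q = 0.00024) and -1.94 ± 0.40 (q = 0.0041). Per kilobase, the ratio of Col6a1 to Col6a2 in OL libraries was 0.0355 to 0.0658 in naive tissue and 0.58 to 0.874 at dpi 10, against 0.728 to 1.39 and 1.62 to 1.76 in total RNA. The ratio of Col6a1 to Col6a3 went from 0.122 to 0.228 to 4.58 to 7.06 in OL libraries and from 1.13 to 2.84 to 9.08 to 10.7 in total RNA. The size of these ratios depends on the union exon lengths, 4380 bases for Col6a1, 8326 for Col6a2 and 11963 for Col6a3. The other type VI chains, Col6a4, Col6a5 and Col6a6, stayed at or under 6.70 CPM in every library and had no called change.

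Col5a2 and Col1a2 showed the same kind of shift as Col6a2 and Col6a3. Col5a2 had 1.71, 1.9 and 1.36 CPM in the 3 naive libraries, 23.9, 32.3 and 14.9 at dpi 2, 38.7, 43.2 and 35.5 at dpi 10 and 9.56, 13 and 15.1 at dpi 42 in total RNA. The OL libraries of the same pools had 3.19, 2.45 and 3.75 CPM in the 3 naive libraries, 7.48, 19.4 and 16.5 at dpi 2, 25.7, 22.3 and 20.2 at dpi 10 and 6.78, 6.12 and 6.73 at dpi 42. It rose at every time in total RNA (3.84 ± 0.33 (q = 1.8e-08), 4.56 ± 0.34 (q = 2.6e-09) and 2.92 ± 0.32 (q = 1.1e-06)). OL levels rose by 2.20 ± 0.31 (q = 7.2e-06), 2.86 ± 0.31 (q = 1.5e-06) and 1.06 ± 0.30 (q = 0.0096). In naive tissue it was OL enriched (0.92 ± 0.31 (q = 0.017), and 0.42 with library sizes alone), and at dpi 2, 10 and 42 it was OL depleted (-0.71, -0.78 and -0.94). That depletion was lost in 3 of 6 fits that left out 1 library at dpi 2 (-0.43, q = 0.246 without total RNA library 2, of the pool with Y-linked counts) and in 3 of 6 at dpi 10 (q from 0.0715 to 0.0949). The OL rise at dpi 42 was likewise lost in 3 of 6 (0.99 without OL library 1, whose labels conflict), and the naive enrichment had q = 0.0706 without total RNA library 3. The differential OL enrichment was -1.63 ± 0.42 (q = 0.012), -1.70 ± 0.42 (q = 0.016) and -1.86 ± 0.43 (q = 0.0097) for Col5a2, and at dpi 10 q was 0.0514 without naive total RNA library 3. For Col1a2 it was -0.58 ± 0.31 (q = 0.25), -1.87 ± 0.31 (q = 0.00066) and -1.11 ± 0.31 (q = 0.03), and the call at dpi 42 was lost without naive total RNA library 2 or 3 or without dpi 42 total RNA library 2 or 3 (q from 0.0705 to 0.0868). Col3a1 and Col5a2 lie tail to tail 24.6 kb apart on chromosome 1, and the differential OL enrichment of Col3a1 was not called (-1.62, -1.08 and -0.69). These values of Col3a1 depend on naive OL library 3. Without it, the OL changes that enter them were 5.45, 8.10 and 5.94, in place of 3.10, 5.68 and 3.56.

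In all, 4, 6 and 5 of the 44 members were called in differential OL enrichment at dpi 2, 10 and 42, where 6.27%, 2.91% and 2.97% of all genes were. Of these, 3, 5 and 4 went down (2.92%, 1.43% and 1.42% of all genes) and 1 went up at each time (3.35%, 1.48% and 1.56%). The member that went up was Col13a1, whose fitted value depends on how counts of 0 in every naive OL library are treated, and at dpi 2 the limit in its place, 0.2, is under the threshold of 1. The median over the members was -0.36, -0.49 and -0.18, against 0.06, 0.08 and 0.04 over all genes. Without naive OL library 3 the counts were 5, 7 and 8, with all of the calls above among them. Of these, 2, 2 and 3 went up and 3, 5 and 5 went down, so Col13a1 was then not the only member that went up. The counts were 5 at dpi 2 without pool 2 and 5 at dpi 42 without the libraries with conflicting labels.

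**Figure D4:**
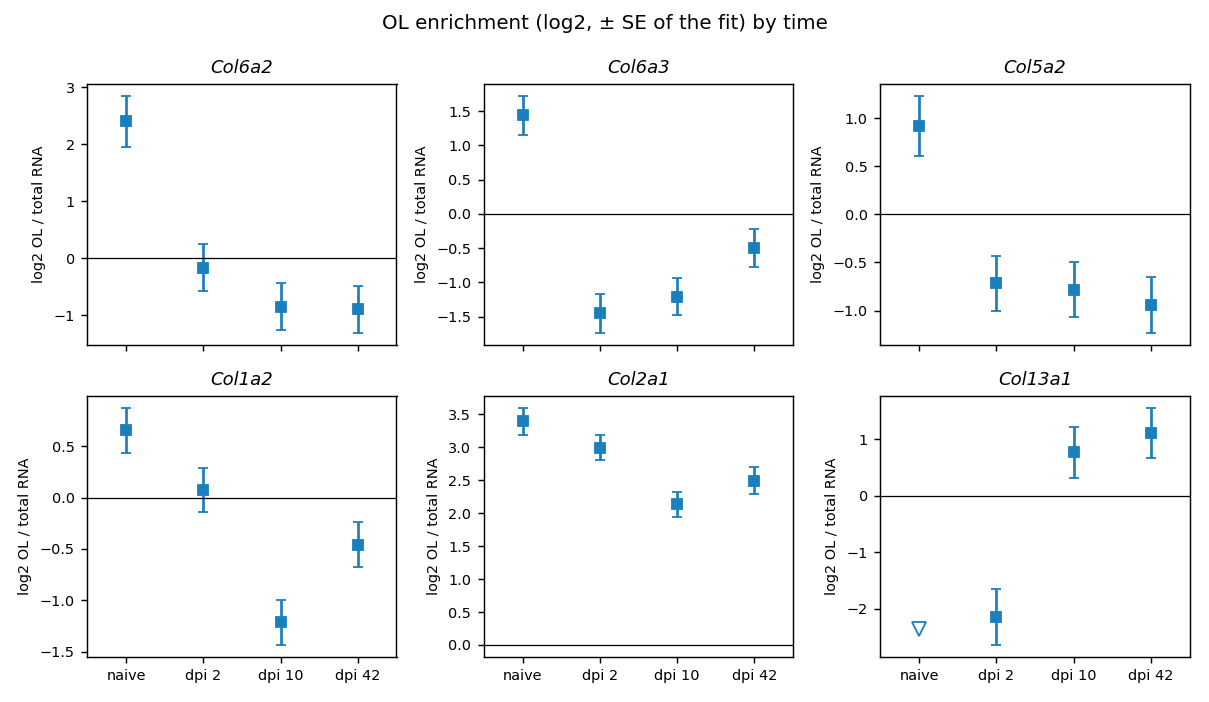
Log2 ratio of OL to total RNA, with SE bars, of Col6a2, Col6a3, Col5a2, Col1a2, Col2a1 and Col13a1 in naive tissue and at dpi 2, 10 and 42; the open triangle is the limit that a count of 0 allows for Col13a1 in naive tissue. The first 4 genes lie above 0 in naive tissue and below it at dpi 10, Col2a1 stays above 0 throughout, and Col13a1 rises to 1.12 at dpi 42.

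Col13a1 (ENSMUSG00000058806; chromosome 10, 61838236 to 61979108, minus strand), a transmembrane collagen found at cell adhesions, had 0.951, 0.548 and 0.38 CPM in the 3 naive libraries, 1.43, 2.57 and 0.877 at dpi 2, 3.98, 2.83 and 3.33 at dpi 10 and 3.63, 4.52 and 6.69 at dpi 42 in total RNA. Levels in OL libraries were 0, 0 and 0 CPM in the 3 naive libraries, 0.302, 0.567 and 0.23 at dpi 2, 8, 5.55 and 3.73 at dpi 10 and 11.9, 10.5 and 9.9 at dpi 42. No read was counted in the naive OL libraries, and the lowest OL library at dpi 42 lay above the highest total RNA library. Against the limit of 3 counts per library, OL levels were at least 2.988-fold higher at dpi 2, at least 47.0-fold higher at dpi 10 and at least 87.74-fold higher at dpi 42. The fitted OL changes had q = 7.6e-05, 1.7e-07 and 4.7e-08, and the limits themselves were not tested. Total RNA rose by 1.37 ± 0.47 (q = 0.028), 2.42 ± 0.48 (q = 0.00064) and 2.97 ± 0.49 (q = 0.00021). The call at dpi 2 was lost without total RNA library 2 of that time (0.88, q = 0.198), which belongs to the pool with Y-linked counts, and without naive total RNA library 2 (q = 0.091) or 3 (q = 0.124). In naive tissue Col13a1 was at least 5.11-fold lower in OL libraries than in total RNA, at dpi 2 its log2 ratio was -2.14 ± 0.50 (q = 0.0013), and at dpi 10 and 42 it was 0.77 ± 0.45 (q = 0.15) and 1.12 ± 0.45 (q = 0.041). The enrichment at dpi 42 was lost when any of 5 of the 6 dpi 42 libraries was left out (q from 0.0612 to 0.136), and it was 0.86 (q = 0.219) without both libraries with conflicting labels. With the naive ratio at the limit of 3 counts, the differential OL enrichment was at least 0.2, 3.12 and 3.47 on the log2 scale at dpi 2, 10 and 42. The q-values of 0.01, 0.00018 and 0.00024 belong to the fitted values of 5.08, 8.0 and 8.35 and not to these limits.

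A set of 5 members was OL enriched in all 4 groups: Col2a1, Col9a2, Col9a3, Col11a2 and Col16a1. Over all genes 13.9% were, so this count is not above the background. Col2a1 is the fibrillar collagen of cartilage, Col11a2 a chain of the type XI collagen that joins it, Col9a2 and Col9a3 are chains of type IX, which decorates type II fibers, and Col16a1 is another fibril-associated chain. Over all members, 9 were OL enriched and 14 OL depleted in naive tissue, where 21.7% and 28.6% of all genes were. After injury 5, 5 and 6 were enriched (20.5%, 21.2% and 21.1% of all genes) and 20, 20 and 15 depleted (27.2%, 27.3% and 27.0%) at dpi 2, 10 and 42. The 8 members depleted in all 4 groups, a count near the background of 16.9% of all genes, were Col1a1, Col4a2, Col6a1, Col8a1, Col8a2, Col12a1, Col15a1 and Col25a1. For Col12a1 the depletion was lost in naive tissue without OL library 1 or 2 (q = 0.134 and 0.102) and at dpi 2 without pool 2 (q = 0.0863). The median log2 ratio was -0.84 in naive tissue and -1.48, -1.31 and -1.05 after injury, against -0.27, -0.19, -0.22 and -0.18 over all genes. Without naive OL library 3, 9 were enriched and 20 depleted in naive tissue. With library sizes alone, which move the median of all genes by -0.58 to -0.5, the counts were 6 and 17 in naive tissue, 4 and 23 at dpi 2, 3 and 22 at dpi 10 and 4 and 24 at dpi 42. Without pool 2 of dpi 2 they were 6 and 14 at dpi 2, and without the libraries with conflicting labels 4 and 18 at dpi 42.

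Col2a1 rose early and briefly. Total RNA held 1.97, 1.32 and 1.14 CPM in the 3 naive libraries, 23.3, 24 and 22.8 at dpi 2, 4.06, 3.83 and 3.9 at dpi 10 and 1.47, 1.95 and 2.76 at dpi 42. OL libraries held 16.9, 15.5 and 14.3 CPM in the 3 naive libraries, 177, 225 and 156 at dpi 2, 17.6, 17.6 and 16.6 at dpi 10 and 10.1, 12.5 and 12.4 at dpi 42. The OL libraries of dpi 2 lay far above those of every other group, with log2 changes of 3.58 ± 0.20 (q = 3.4e-11), 0.15 ± 0.18 (q = 0.65) and -0.42 ± 0.18 (q = 0.084) at dpi 2, 10 and 42. In total RNA the changes were 3.98 ± 0.21 (q = 1.8e-11), 1.41 ± 0.20 (q = 1.9e-05) and 0.48 ± 0.21 (q = 0.11). From dpi 2 to dpi 10 its log2 change was -2.57 ± 0.19 (q = 5.2e-08) in total RNA and -3.43 ± 0.19 (q = 2.5e-10) in OL libraries. OL enrichment was 3.40 ± 0.21 (q = 1.2e-11), 2.99 ± 0.19 (q = 4e-11), 2.13 ± 0.19 (q = 5e-09) and 2.50 ± 0.20 (q = 8.7e-10) in naive tissue and at dpi 2, 10 and 42, and the differential OL enrichment was called at dpi 10 (-1.26 ± 0.27 (q = 0.0061)).

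Col16a1 rose at every time in both kinds of library. Total RNA had 10.3, 8.25 and 10.5 CPM in the 3 naive libraries, 51.6, 57.3 and 51.6 at dpi 2, 45.8, 42.5 and 38.6 at dpi 10 and 21.9, 29 and 28.6 at dpi 42. OL libraries had 24.9, 27.8 and 31.6 CPM in the 3 naive libraries, 146, 186 and 148 at dpi 2, 100.1, 83.2 and 84.4 at dpi 10 and 84.4, 60.03 and 75.2 at dpi 42. Its log2 changes were 2.47 ± 0.15 (q = 2.9e-10), 2.13 ± 0.15 (q = 1.9e-09) and 1.45 ± 0.15 (q = 5.4e-07) in total RNA. They were 2.51 ± 0.15 (q = 1.4e-10), 1.67 ± 0.15 (q = 1.1e-07) and 1.38 ± 0.15 (q = 8.4e-07) in OL libraries, with no overlap with naive libraries. OL enrichment was 1.54 ± 0.15 (q = 1.6e-08), 1.58 ± 0.15 (q = 1.1e-08), 1.08 ± 0.15 (q = 2e-06) and 1.47 ± 0.15 (q = 2.9e-08) in the 4 groups, and at dpi 10 it was 0.50 with library sizes alone. None of its differential OL enrichments was called (0.04, -0.46 and -0.07).

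Col9a3 rose later. It had 15.3, 12.2 and 11.6 CPM in the 3 naive libraries, 14.9, 15.1 and 14.9 at dpi 2, 49.3, 42.3 and 36.9 at dpi 10 and 26.4, 19.4 and 21 at dpi 42 in total RNA. The corresponding OL libraries held 59, 61.4 and 50.9 CPM in the 3 naive libraries, 87.6, 88.1 and 65.1 at dpi 2, 166, 163 and 128 at dpi 10 and 126, 90.01 and 90.7 at dpi 42. The change was called at dpi 10 alone, at 1.72 ± 0.17 (q = 1.6e-07) in total RNA and 1.41 ± 0.17 (q = 3.5e-06) in OL libraries, while at dpi 42 it was 0.77 and 0.84. Col9a3 overlaps Tcfl5 on the other strand over 234 exon bases, and since the strand setting of the counting is not given in the sources used here, reads of the 2 genes there cannot be told apart. Col9a2, at 6.88 to 11.4 CPM in naive OL libraries and 20.9 to 23.4 CPM at dpi 10, was called at dpi 10 as well (1.17 in total RNA and 1.21 in OL libraries). Its OL enrichment was the smallest of the 5 (0.66 ± 0.24 (q = 0.021), 1.01 ± 0.24 (q = 0.0011), 0.70 ± 0.23 (q = 0.014) and 0.68 ± 0.23 (q = 0.018)). With the tissue pool as a block it was 0.648 (q = 0.0706) in naive tissue and 0.661 (q = 0.0639) at dpi 42, and with library sizes alone 0.14, 0.45, 0.12 and 0.17 in the 4 groups. In naive tissue it was 1.02 without OL library 3 and 0.52 (q = 0.107) without total RNA library 1, and at dpi 42 it was 0.46 (q = 0.189) without the libraries with conflicting labels.

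Col11a2 fell at dpi 2 and rose again by dpi 10. Total RNA had 25.6, 25.8 and 16.8 CPM in the 3 naive libraries, 15.8, 9.87 and 6.53 at dpi 2, 42.3, 37.1 and 33.9 at dpi 10 and 23.6, 28 and 31.9 at dpi 42. OL libraries had 185, 182 and 90.7 CPM in the 3 naive libraries, 66.6, 54.4 and 30.5 at dpi 2, 186, 155 and 159 at dpi 10 and 157, 133 and 189 at dpi 42. The dpi 2 libraries lay below the naive ones in both, with log2 changes of -1.08 ± 0.30 (q = 0.0075) in total RNA and -1.59 ± 0.30 (q = 0.00022) in OL libraries. The total RNA value was -0.82 to -0.99 without dpi 2 library 3 or without naive library 1 or 2, which is under the threshold, and it was not called with library sizes alone or with a naive library as the TMM reference. From dpi 2 to dpi 10 Col11a2 rose by 1.81 ± 0.31 (q = 0.00066) in total RNA and by 1.73 ± 0.30 (q = 0.00025) in OL libraries. Its OL enrichment was 2.75 ± 0.31 (q = 1.5e-07), 2.23 ± 0.31 (q = 3.4e-06), 2.15 ± 0.31 (q = 4e-06) and 2.52 ± 0.31 (q = 5.5e-07).

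**Figure D5:**
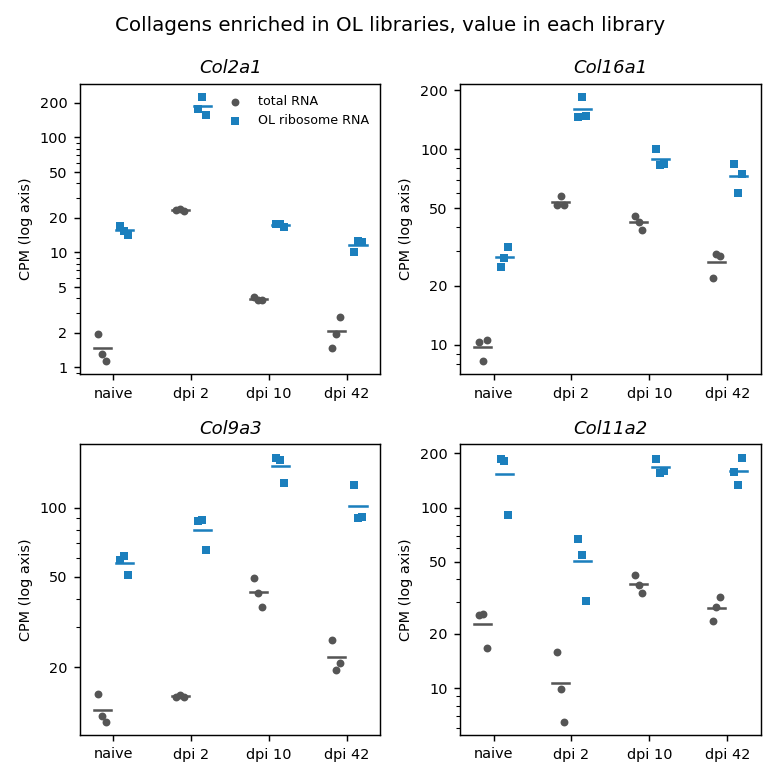
CPM on a log axis of Col2a1, Col16a1, Col9a3 and Col11a2 in each library by time, total RNA beside OL libraries, with lines at group means. OL libraries lie above total RNA libraries at every time, Col2a1 peaks at dpi 2 at 177, 225 and 156 CPM in OL libraries, and Col11a2 dips at dpi 2.

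The study joined both readouts in a filtration of OL changes, meant to set aside RNA of other cells that comes through the pull-down. An OL change was kept if the differential OL enrichment was called in the same direction (arm 1), or if the gene was OL enriched past a log2 of 1 both in naive tissue and at that time (arm 2). The rule was applied here to the edgeR fits in place of the study's DESeq2 fits. The numbers of genes kept over the whole table differ from those the paper reports. Of the members that rose in OL libraries, 3 of 16 were kept at dpi 2 (Col2a1 and Col16a1 by arm 2, Col13a1 by arm 1), 3 of 25 at dpi 10 (Col9a3, Col16a1 and Col13a1) and 2 of 15 at dpi 42 (Col16a1 and Col13a1). For Col13a1 at dpi 2, arm 1 rests on the fitted value alone, since the limit of 0.2 does not reach 1. Over all genes, 363 of 1754, 119 of 1170 and 199 of 1466 rises were kept, which are 2.11%, 0.693% and 1.16% of the genes tested. The fall of Col11a2 at dpi 2 was kept by arm 2, as were 299 of 1176 falls over all genes (1.74% of those tested). None of Col1a1, Col3a1, Col5a1 or Col6a1 was kept at any time.

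Type IV collagen forms the basement membrane of vessels, and Col4a1 and Col4a2 are its common chains. Col4a1 had 15.1, 14.2 and 22.8 CPM in the 3 naive libraries, 47.1, 83.6 and 77.5 at dpi 2, 139, 174 and 148 at dpi 10 and 31.9, 27.7 and 40.8 at dpi 42 in total RNA. OL libraries had 2.27, 1.56 and 17.7 CPM in the 3 naive libraries, 11.3, 20.2 and 20.3 at dpi 2, 44.6, 35.8 and 37.9 at dpi 10 and 12.9, 17.8 and 16.4 at dpi 42. It rose at dpi 2 and 10 in total RNA (2.00 ± 0.52 (q = 0.0041), 3.14 ± 0.54 (q = 0.00012) and 0.94 ± 0.51 (q = 0.2)). In OL libraries it rose at dpi 10 (1.26 ± 0.53 (q = 0.065), 2.45 ± 0.54 (q = 0.0028) and 1.12 ± 0.52 (q = 0.11)). Naive OL library 3 alone reached the total RNA range, and without it the OL change at dpi 10 was 4.36 and the naive OL enrichment -3.02 in place of -1.27, which was lost without any 1 of the other naive libraries (q from 0.0513 to 0.288). Col4a2 had 18.3, 19 and 24.2 CPM in the 3 naive libraries, 28.6, 42.8 and 50.5 at dpi 2, 90.4, 104 and 95.4 at dpi 10 and 24, 30.9 and 30.6 at dpi 42 in total RNA. Its OL libraries held 1.43, 4.48 and 10.2 CPM in the 3 naive libraries, 6.76, 8.51 and 10.6 at dpi 2, 26.6, 23.4 and 27 at dpi 10 and 10.5, 8.03 and 8.92 at dpi 42. It rose at dpi 10, by 2.24 ± 0.37 (q = 8.7e-05) and 2.25 ± 0.38 (q = 0.00029), and was OL depleted in all 4 groups (-1.93, -2.23, -1.91 and -1.64). The 2 genes lie head to head on chromosome 8 and overlap over 22 bases. Their ratio per kilobase in total RNA, Col4a1 to Col4a2, was 0.665 to 0.833 in naive tissue, 1.36 to 1.73 at dpi 2, 1.36 to 1.49 at dpi 10 and 0.795 to 1.18 at dpi 42. The chains Col4a3, Col4a4 and Col4a5 had no called change, and Col4a6 rose in total RNA at dpi 10 (2.62 ± 0.97 (q = 0.043)), a call that was lost when any 1 library of the comparison was left out. The 8 endothelial markers summed to 104.8 to 136.7 CPM in naive total RNA, 184.6 to 291 CPM at dpi 2, 130.8 to 177.9 CPM at dpi 10 and 145.3 to 173 CPM at dpi 42, and 4, 1 and 0 of the 8 rose. In OL libraries they summed to 10.8 to 14.05, 12.93 to 21.39, 10.14 to 23.6 and 9.857 to 21.44 CPM, and 4, 3 and 3 rose, while 1, 0 and 1 fell. Their part in the values of type IV collagen was not tested.

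The multiplexins Col15a1 and Col18a1, whose C-terminal fragments restrain vessel growth, rose as well. Col15a1 had 4.39, 5.03 and 7.2 CPM in the 3 naive libraries, 10.3, 11.6 and 9.67 at dpi 2, 47.2, 48.8 and 44.8 at dpi 10 and 18.4, 29.7 and 27.9 at dpi 42 in total RNA. The OL libraries of the same pools had 2.48, 1.4 and 1.72 CPM in the 3 naive libraries, 1.25, 3.73 and 2.41 at dpi 2, 10.7, 10.1 and 9.52 at dpi 10 and 3.98, 3.25 and 6.61 at dpi 42. It rose at dpi 10 and 42 in total RNA (0.92 ± 0.31 (q = 0.022), 3.08 ± 0.33 (q = 3.9e-07) and 2.19 ± 0.32 (q = 3.4e-05)). So it did in OL libraries (0.40 ± 0.33 (q = 0.38), 2.44 ± 0.33 (q = 2.3e-05) and 1.30 ± 0.33 (q = 0.004)), and at dpi 42 the OL change was 0.88 without OL library 3 of that time. Col18a1, the source of endostatin, had 4.66, 4.09 and 5.1 CPM in the 3 naive libraries, 24.8, 30.7 and 31 at dpi 2, 73.5, 85.9 and 67.7 at dpi 10 and 10.8, 17.3 and 18.5 at dpi 42 in total RNA. Levels in OL libraries were 2.19, 1.19 and 2.33 CPM in the 3 naive libraries, 7.37, 27.4 and 16.5 at dpi 2, 45.1, 35.6 and 29.3 at dpi 10 and 8.11, 7.8 and 13.6 at dpi 42. It rose at every time, by 2.64 ± 0.35 (q = 5.2e-06), 4.03 ± 0.37 (q = 6.6e-08) and 1.75 ± 0.35 (q = 0.00088) in total RNA. The OL translatome followed with rises of 3.16 ± 0.38 (q = 1.1e-06), 4.26 ± 0.39 (q = 1.5e-07) and 2.37 ± 0.37 (q = 5.5e-05). At dpi 2 the OL libraries of Col18a1 overlapped with total RNA (-0.75 ± 0.33 (q = 0.06)), whereas Col15a1 was OL depleted in all 4 groups (-1.57, -2.10, -2.22 and -2.46).

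The short-chain network genes of type VIII, found around vessels and in remodeling tissue, were low in naive tissue. Col8a1 had 2.98, 1.45 and 1.68 CPM in the 3 naive libraries, 28.5, 27.8 and 8.53 at dpi 2, 41, 44.7 and 30.6 at dpi 10 and 8.27, 6.21 and 6.66 at dpi 42 in total RNA. The corresponding OL libraries held 0.084, 0 and 0.306 CPM in the 3 naive libraries, 1.25, 8.43 and 8.45 at dpi 2, 5.51, 5.86 and 5.06 at dpi 10 and 1.54, 1.31 and 0.9 at dpi 42. It rose at every time in both (3.40 ± 0.58 (q = 8.1e-05), 4.25 ± 0.60 (q = 1.4e-05) and 1.79 ± 0.55 (q = 0.023) in total RNA). The OL changes were 5.45 ± 0.76 (q = 7.3e-06), 5.30 ± 0.76 (q = 4e-05) and 3.18 ± 0.79 (q = 0.0036), and at dpi 42 in total RNA q was 0.0596 to 0.101 without total RNA library 1 of that time or naive library 2 or 3. Col8a2 had 1.25, 2.45 and 2.63 CPM in the 3 naive libraries, 6.94, 2.99 and 2.54 at dpi 2, 19.9, 19.1 and 21.1 at dpi 10 and 12.3, 15.1 and 19.2 at dpi 42 in total RNA. OL libraries had 0, 0 and 0.88 CPM in the 3 naive libraries, 0.642, 0.729 and 0.0383 at dpi 2, 1.9, 2.09 and 2.09 at dpi 10 and 2.8, 1.12 and 1.45 at dpi 42. It rose at dpi 10 and 42, by 3.25 and 2.88 in total RNA and by 2.73 and 2.55 in OL libraries, where naive libraries 1 and 2 were at 0. The OL calls of Col8a2 were lost in several fits that left out 1 library (q from 0.0591 to 0.111). Without naive OL library 3 the naive OL libraries held no count of it, and against the limit of 3 counts it was at least 16.05-fold and 14.14-fold higher at dpi 10 and 42. Col10a1, the third gene of the class, was at or under 0.401 CPM in every library.

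Col7a1, which forms the anchoring fibrils of skin, had 0.0328, 0.387 and 0.0634 CPM in the 3 naive libraries, 1.88, 2.18 and 2 at dpi 2, 8.69, 7.06 and 4.85 at dpi 10 and 1.05, 1.86 and 1.56 at dpi 42 in total RNA. Its OL libraries held 0, 0 and 0.421 CPM in the 3 naive libraries, 2.72, 4.74 and 1.72 at dpi 2, 3.61, 4.03 and 4.49 at dpi 10 and 0, 0.784 and 2.11 at dpi 42. It rose by 3.61 ± 1.12 (q = 0.014), 5.38 ± 1.18 (q = 0.0013) and 3.18 ± 1.10 (q = 0.043) in total RNA. In OL libraries it rose at dpi 2 and 10 (4.36 ± 1.16 (q = 0.005), 4.77 ± 1.18 (q = 0.0069) and 2.70 ± 1.14 (q = 0.076)), and 2 of the 3 naive OL libraries were at 0. Without 1 of 2 naive total RNA libraries the dpi 2 call in total RNA was lost (q = 0.0656 and 0.0641), and so was that of dpi 42 in 4 fits that left out 1 library (q from 0.0846 to 0.154), while it was 4.83 without naive total RNA library 2. Without naive OL library 3, Col7a1 was at least 24.19-fold and 31.98-fold higher in OL libraries at dpi 2 and 10, against the limit of 3 counts. Col28a1, a collagen of peripheral nerve, had 0.0328, 0.258 and 0.254 CPM in the 3 naive libraries, 2.21, 8.53 and 3.29 at dpi 2, 3.17, 1.12 and 1.2 at dpi 10 and 2.82, 1 and 1.99 at dpi 42 in total RNA. The OL libraries of the same pools had 0, 0 and 2.26 CPM in the 3 naive libraries, 9.6, 33.3 and 12.6 at dpi 2, 14.5, 6.54 and 4.87 at dpi 10 and 4.26, 3.66 and 9.27 at dpi 42. It rose by 4.65 ± 1.16 (q = 0.003), 3.30 ± 1.14 (q = 0.03) and 3.38 ± 1.14 (q = 0.036) in total RNA. Among OL libraries it rose by 4.59 ± 1.08 (q = 0.0018), 3.49 ± 1.04 (q = 0.023) and 2.90 ± 1.02 (q = 0.033), and its OL to total RNA ratio was not called in any group (2.05, 1.98, 2.23 and 1.56). The calls at dpi 10 and 42 were lost in several fits that left out 1 library (q from 0.065 to 0.134). Against the limit of 3 counts, Col28a1 was at least 146.3-fold, 68.35-fold and 45.32-fold higher in OL libraries without naive OL library 3. Among the 8 groups, the library with the most Col28a1 was also the library with the most Schwann cell marker RNA in 7, a count made after the values were seen. No other member matched in 7, but 4 members matched in 6 groups and 7 members in 5. Such a match is thus not particular to Col28a1. The 8 Schwann cell markers summed to 135, 146 and 819 CPM in naive OL libraries, 432, 1048 and 517 CPM at dpi 2, 1786, 1098 and 1068 CPM at dpi 10 and 1491, 1391 and 1632 CPM at dpi 42. Their part in the values of Col28a1 was not tested.

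Among the transmembrane collagens other than Col13a1, no change was called. Col23a1 was the highest member per kilobase in naive total RNA, at 6.124 CPM per kb, followed by Col9a3 at 3.383 and Col11a2 at 3.305. That rank depends on the union exon lengths, and in CPM naive total RNA averaged 35.13 for Col23a1 and 36.7 for Col1a2. Col23a1 had 33, 32.6 and 39.8 CPM in the 3 naive libraries, 16.4, 19.7 and 22.2 at dpi 2, 45.9, 51.2 and 44 at dpi 10 and 27.9, 49.5 and 46.5 at dpi 42 in total RNA. Levels in OL libraries were 7.52, 8.29 and 68.4 CPM in the 3 naive libraries, 5.75, 6.89 and 20.01 at dpi 2, 35.6, 43.4 and 23.3 at dpi 10 and 76.3, 62.5 and 23.8 at dpi 42. Naive OL library 3 and dpi 42 OL libraries 1 and 2 stood well above the other libraries of their groups. The 6 astrocyte markers were likewise highest in these libraries, and at dpi 2 and 10 in the OL library with the most Col23a1, at 1403, 1239 and 7991 CPM in naive OL libraries, 2521, 938 and 7578 CPM at dpi 2, 1993, 6067 and 2464 CPM at dpi 10 and 11900.0, 9975 and 1884 CPM at dpi 42, and their part in the values of Col23a1 was not tested. Col25a1, a collagen of neurons that binds amyloid, had 33.1, 29.9 and 37.9 CPM in the 3 naive libraries, 13.4, 7.9 and 13.8 at dpi 2, 15, 14 and 16.9 at dpi 10 and 19.2, 17.4 and 16.5 at dpi 42 in total RNA. The corresponding OL libraries held 1.47, 1.74 and 1.84 CPM in the 3 naive libraries, 1.21, 0 and 2.22 at dpi 2, 1.17, 0.304 and 2.09 at dpi 10 and 0.524, 2.13 and 1.14 at dpi 42. Injured total RNA libraries lay below naive ones at every time, with log2 changes of -1.52 ± 0.61 (q = 0.054), -1.14 ± 0.60 (q = 0.16) and -0.93 ± 0.60 (q = 0.29) that were not called. OL depletion was -4.32 ± 0.69 (q = 1.6e-05), -3.35 ± 0.68 (q = 0.00028), -3.68 ± 0.69 (q = 0.00011) and -3.81 ± 0.69 (q = 7.3e-05). The 6 neuron markers summed to 7383, 7789 and 7416 CPM in naive total RNA and 3529, 2963 and 3877 CPM at dpi 2.

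The order of levels, which depends on the union exon length used for each gene, changed with time. Per kilobase of exon, Col1a1, Col1a2 and Col3a1 led in total RNA at dpi 2 (23.45, 13.38 and 11.92 CPM per kb) and dpi 10 (127.8, 50.33 and 49.31), and Col1a1, Col1a2 and Col6a1 at dpi 42 (33.07, 17.82 and 11.44). In OL libraries the leaders were Col11a2 (22.2), Col9a3 (14.82) and Col23a1 (4.896, with naive library 3 far above the others) in naive tissue, Col16a1 (23.69), Col9a3 (20.83) and Col2a1 (20.13) at dpi 2, Col9a3 (39.49), Col1a1 (25.65) and Col11a2 (24.31) at dpi 10, and Col9a3 (26.55), Col11a2 (23.24) and Col1a2 (12.98) at dpi 42. Neighbors in this order whose libraries overlapped, such as Col1a2 and Col3a1 at dpi 10 in total RNA, do not differ beyond their spread.

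Between injured times, total RNA of 13 members rose from dpi 2 to dpi 10 (1.07% of all genes) and that of 1, Col2a1, fell (0.967%). From dpi 10 to dpi 42, 6 members fell (Col1a1, Col1a2, Col4a2, Col5a2, Col6a3 and Col18a1), and they were 6 of the 13 genes, or 0.0757% of those tested, that fell in the whole table. No member rose in that step. None of these 6 falls was called without dpi 10 total RNA library 2 or without dpi 42 total RNA library 1, and without the 2 libraries with conflicting labels the only call was Col9a3. In OL libraries 11 members rose from dpi 2 to dpi 10 (4.35% of all genes) and 2, Col2a1 and Col5a3, fell (3.00%). From dpi 10 to dpi 42, 10 fell (1.22%), and 4 without the libraries with conflicting labels. Col18a1 had the steepest called fall in total RNA, at -2.29 ± 0.34 (q = 0.0061). Of the 28 members that rose at any time in total RNA, 23 were highest at dpi 10, 4 at dpi 2 and 1 at dpi 42, and of the 26 in OL libraries, 19, 6 and 1.

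For 15 members no change against naive tissue and no differential OL enrichment was called: Col4a3, Col4a4, Col4a5, Col6a4, Col6a5, Col6a6, Col9a1, Col10a1, Col17a1, Col19a1, Col22a1, Col23a1, Col24a1, Col25a1 and Col26a1. Apart from Col23a1 and Col25a1, they had at most 19.8 CPM in any library. The remaining fibrillar and fibril-associated genes with calls were Col11a1, Col12a1, Col14a1, Col20a1 and Col27a1, with log2 changes at dpi 10 of 2.16, 2.41, 3.22, 3.97 and 1.71 in total RNA, all called, and of 1.62, 1.79, 2.77, 3.34 and 2.28 in OL libraries, also called. Leaving out 1 library ended the OL calls of Col11a1 (q from 0.0501 to 0.0578), Col12a1 (q from 0.081 to 0.134) and Col14a1 (q = 0.0598 and 0.089). The OL changes of Col12a1 and Col14a1 were 2.68 and 5.83 without naive OL library 3. Without overlap with naive libraries, 26, 38 and 30 of 44 members were higher in total RNA at dpi 2, 10 and 42 (24.7%, 24.5% and 20.2% of all genes) and 17, 27 and 21 in OL libraries (18.3%, 15.8% and 17.2%).

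Other genes of the collagen pathway are read against the same shares of all genes that rose, which were 10.0%, 9.20% and 6.66% in total RNA and 10.2%, 6.82% and 8.54% in OL libraries at dpi 2, 10 and 42. Of 19 genes for chain modification and folding, 10, 9 and 3 rose in total RNA and 5, 3 and 4 in OL libraries. In OL libraries 1, 1 and 0 fell, where 6.85%, 1.26% and 4.08% of all genes did, and 1 gene in a list of this size is no result about the list. Serpinh1, the collagen chaperone HSP47, rose at every time in both (2.77, 3.10 and 2.21 in total RNA, 2.03, 1.87 and 1.80 in OL libraries). P4hb, a subunit of prolyl 4-hydroxylase, rose at dpi 2 in total RNA (1.34 ± 0.08 (q = 3.4e-10)) and had OL changes of 0.63, 0.37 and 0.24 that were not called. Ppib, a proline isomerase that helps folding, rose in total RNA at dpi 2 (1.21 ± 0.10 (q = 1.2e-08)). Plod3, a lysyl hydroxylase, had total RNA changes of 1.49 ± 0.14 (q = 4.7e-08), 1.11 ± 0.14 (q = 2.5e-06) and 0.94 ± 0.13 (q = 3.1e-05) and OL changes of 0.12, 0.01 and -0.28. Its differential OL enrichment was -1.37 ± 0.19 (q = 5.6e-05), -1.10 ± 0.19 (q = 0.00084) and -1.22 ± 0.19 (q = 0.0005). The list's median change was 1.2, 1.11 and 0.74 in total RNA and 0.63, 0.33 and 0.34 in OL libraries.

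Of 13 genes for propeptide cleavage and crosslinking, 6, 6 and 5 rose in total RNA and 6, 5 and 4 in OL libraries, where 2, 0 and 1 fell. Lox, the lysyl oxidase that starts crosslinks, rose by 6.52 ± 0.88 (q = 5.7e-06), 6.42 ± 0.88 (q = 9.5e-06) and 5.14 ± 0.84 (q = 0.00015) in total RNA. OL levels rose by 3.37 ± 0.91 (q = 0.0054), 3.70 ± 0.90 (q = 0.0064) and 2.94 ± 0.92 (q = 0.017). Pcolce, an enhancer of procollagen C-proteinase, rose by 3.37, 4.82 and 4.27 and 1.62, 2.98 and 3.35. Bmp1, that proteinase, had changes of 2.33 ± 0.30 (q = 3.3e-06), 1.70 ± 0.29 (q = 0.00013) and 0.97 ± 0.29 (q = 0.019) in total RNA. Its OL changes were 2.17 ± 0.30 (q = 6.5e-06), 0.86 ± 0.29 (q = 0.043) and 0.52 ± 0.29 (q = 0.18). Adamts2, which removes the N-terminal propeptide, was OL enriched in all 4 groups (1.65, 0.86, 0.93 and 0.93) and fell in OL libraries at dpi 2 (-1.36 ± 0.15 (q = 3.9e-07)). The median change was 1.47, 1.7 and 0.97 in total RNA and 1.42, 0.54 and 0 in OL libraries.

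Of 11 tested genes for collagen receptors and uptake, 6, 6 and 5 rose in total RNA and 3, 5 and 5 in OL libraries. Mrc1 and Mrc2, endocytic receptors that take up collagen, rose in total RNA by 3.74, 4.19 and 3.50 and 2.90, 3.51 and 2.93, and in OL libraries the changes of Mrc1 were 2.89 ± 0.74 (q = 0.0036), 3.64 ± 0.73 (q = 0.0012) and 2.90 ± 0.74 (q = 0.0044). Those of Mrc2 were 1.34 ± 0.58 (q = 0.073), 2.69 ± 0.57 (q = 0.0023) and 2.35 ± 0.57 (q = 0.0031). Itgb1, the beta chain of the collagen-binding integrins, had total RNA changes of 1.39 ± 0.10 (q = 1.8e-09), 1.16 ± 0.10 (q = 2.1e-08) and 0.55 ± 0.10 (q = 0.00034). Its differential OL enrichment at dpi 2 was -1.23 ± 0.14 (q = 6.3e-06). Ddr1, a receptor tyrosine kinase for collagen, was OL enriched in all 4 groups (2.36, 1.86, 1.99 and 1.96) with no called change. Of 7 tested proteoglycans that bind collagen fibrils, 3, 5 and 6 rose in total RNA and 3, 4 and 4 in OL libraries. Bgn, Dcn and Lum rose at dpi 10 by 4.00, 3.53 and 4.70 in total RNA and by 2.69, 5.35 and 7.06 in OL libraries. Lum averaged 0.0141 CPM in naive OL libraries, under the limit of 3 counts there (0.115 to 0.127 CPM), and 2.369 CPM in OL libraries at dpi 10. The fitted 7.06 thus depends on how counts near 0 are treated, and it does not show a larger rise of Lum than in total RNA. Fmod, which like Lum regulates fibril width, rose later, with changes of 0.84 ± 0.58 (q = 0.28), 4.28 ± 0.64 (q = 2.7e-05) and 4.62 ± 0.65 (q = 2.7e-05) in total RNA. Its OL changes were 0.24 ± 0.65 (q = 0.85), 3.59 ± 0.65 (q = 0.00048) and 5.01 ± 0.68 (q = 1.1e-05).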

How the data were processed

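RNA-seq was done on total RNA and on HA-immunoprecipitated RNA of the same tissue pools. The authors aligned reads to mm10 (GRCm38.p6) with STAR and counted reads per gene with HTSeq 0.10.0 after quality checks with FastQC 0.10.1, and deposited 1 table of raw counts with 24 library columns. The strand setting of the counting is not given in the sources used here. Groups followed the labels. The 17167 of 21965 genes whose counts summed to 10 or more over all libraries were fitted with edgeR 4.0.16 (R 4.3.3, limma 3.58.1), with TMM scaling, 1 mean per group over all 24 libraries and the quasi-likelihood test. The p-values were adjusted by Benjamini-Hochberg over all tested genes. CPM are TMM-scaled, exon lengths are union lengths of the annotation, and Python 3.11.15 with pandas 2.3.3 made the summaries. The fit was checked on simulated counts. A group at 0 in all libraries was set to 3 counts per library for a limit. Overlap of groups was counted over libraries, and 3 pools a group limit the precision of any single value. Libraries of a group come from separate tissue pools.

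Values in every library are given for up to 2 members a class with the highest mean CPM, for members called in differential OL enrichment or kept by the filtration, and for the 3 rising and 3 falling called members with the smallest p in each change; from the other lists, up to 4 genes with the smallest p at dpi 10 are named. The members and lists were chosen with earlier results of these data known. Total RNA and OL libraries with 1 number come from the same pool, and their deviations from the group means correlated with r from -0.0109 to 0.137; a fit with the pool as a block was an alternative. Other alternatives were the size factors and the Wald test of DESeq2 1.42.0, library sizes alone, other filters on low counts, only the groups compared, leaving out each library and leaving out the libraries with conflicting labels. TMM with a naive library as reference and the fit without pool 2 of dpi 2 were chosen after seeing the data. The name of the Cre driver is not reported here.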

Additional observations from a re-analysis of the deposited data

Results flagged for a closer look

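For 6 members the change in OL libraries differed from the change in total RNA at some time by the test of the difference itself, which is the differential OL enrichment (log2, edgeR with Benjamini-Hochberg adjustment). Col13a1 had fitted values of 5.08, 8.0 and 8.35 at dpi 2, 10 and 42. These fitted values depend on how a count of 0 in every naive OL library is treated, and the limits in place of them were 0.2, 3.12 and 3.47. Col6a2 had -2.57, -3.25 and -3.29, and Col6a3 had -2.89, -2.64 and -1.94. Col5a2 had -1.63, -1.70 and -1.86. Col1a2 had -1.87 at dpi 10 and -1.11 at dpi 42, and Col2a1 had -1.26 at dpi 10. All comparisons at the 3 times share the naive libraries.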

How the results depend on the processing

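Over 277 called values of single genes, 2283 of 2386 values under other settings and 1527 of 1752 values with 1 library left out stayed past the threshold in the same direction, 103 and 225 dropped below it, and 0 changed direction. Leaving out single libraries cost 69 of the 277 calls at least once, while 208 passed in every such fit. With only the groups compared, 11 (main 17) members were called in OL libraries at dpi 2, 8 (main 15) at dpi 42, 2 (main 4) in differential OL enrichment at dpi 2, 25 (main 14) in total RNA from dpi 2 to dpi 10 and 18 (main 6) from dpi 10 to dpi 42. For that last step DESeq2's Wald test called 10, and leaving out the libraries with conflicting labels left 1, against 4 (main 10) in OL libraries. With 1 library left out, counts ranged in OL enrichment from 20 to 29 in naive tissue (29 without OL library 3), 18 to 24 at dpi 2, 18 to 23 at dpi 10 and 18 to 22 at dpi 42; in total RNA changes from 18 to 22, 26 to 27 and 16 to 18; in OL changes from 17 to 23, 21 to 25 and 13 to 22 (23 and 22 without naive OL library 3); in differential OL enrichment from 4 to 5, 5 to 7 and 4 to 8 (8 without naive OL library 3); from dpi 2 to dpi 10, 10 to 12 in total RNA and 11 to 14 in OL libraries; and from dpi 10 to dpi 42, 0 to 6 in total RNA (0 without dpi 10 library 2 or dpi 42 library 1, and 2 without dpi 42 library 2) and 4 to 10 in OL libraries (4 without dpi 10 or dpi 42 library 1, and 5 without dpi 42 library 2). With the tissue pool as a replicate block, the paired counts were 22, 25, 26 and 24 in OL enrichment and 4, 6 and 5 in differential OL enrichment, and 21, 28 and 19 in total RNA and 18, 25 and 17 in OL changes. Across times the libraries share only a number, with correlations from -0.309 to 0.248. Library sizes alone moved the median of all genes by 0.22, 0.18 and 0.13 in total RNA changes and by 0.17, 0.11 and 0.14 in OL changes, and the naive TMM reference moved differential OL enrichment by -0.25, -0.24 and -0.24; with it, the members called there were 4, 6 and 6 and included all calls of the main setting. The causes of these shifts were not tested. A count of 0 allows levels of up to 3 counts, or 0.084 to 0.127 CPM.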
